A study of Mus musculus with 3 samples.

Results

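Chromatin accessibility at 10 circadian clock genes (Per1, Per2, Cry1, Cry2, Arntl, Clock, Nr1d1, Nr1d2, Dbp and Tef) was measured in mouse long-term hematopoietic stem cells (LT-HSCs). The genes are 10 of the 21670 protein-coding genes annotated on chromosomes 1 to 19 and X. They were chosen by name, with fragment counts of this library already seen, so their levels are a description and carry no test. For each gene, the unique fragments over its body and 20 kb either side were counted in 500-bp bins.

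The cells were LT-HSCs (LSKCD48-CD150+CD34-) sorted from c-Kit-enriched bone marrow of 8-week-old wild-type C57BL/6J mice. They went through DOGMA-seq, which reads accessible chromatin, RNA and antibody tags from the same cells after permeabilisation with digitonin. There was 1 preparation with 1 ATAC library and no second condition. The number of mice pooled and the time of day at harvest are not given in the sources used here. Of 3757 called cells, 3108 had over 3000 fragments in peaks and were kept. They held 37137164 fragments, with a median of 11457 per cell (range 3977 to 194399), and all 3108 barcodes also had RNA UMIs (median 3860.5).

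The circadian clock is a feedback loop of transcription found in nearly every cell. ARNTL (also called BMAL1) and CLOCK form a dimer that binds E-boxes and activates the Per and Cry genes, whose proteins then repress that dimer. A second loop runs through NR1D1 and NR1D2 (REV-ERB alpha and beta), which bind ROR elements (ROREs) and repress Arntl, and DBP and TEF are output factors that bind D-boxes. HSC egress from marrow follows a daily rhythm in mice, with the light cycle acting through nerves of the niche.

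Some of the most accessible bins of these genes held clock motifs. The stretches below are reference sequence (RefSeq GRCm38.p6, the assembly also called mm10), written 5′ to 3′ on the gene's own strand. They are 12 of the 19 stretches with a clock motif in a bin that was a local maximum of accessibility at a member's own start or intron, chosen by hand after the values were seen to show the members described below. Capitals mark an E-box (CACGTG), its variant (CACGTT), a D-box (TTATGTAA or TTACGTAA), a cAMP response element (CRE, TGACGTCA) or a RORE, in either direction.
Per1, upstream of the first start, chr11:69095042-69095097, plus strand: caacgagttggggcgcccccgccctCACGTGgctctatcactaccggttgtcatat
Per1, site inside the first intron, chr11:69097193-69097218, plus strand: cctccgcttTGACGTCAcctccctct
Per1, upstream of the second start, chr11:69098774-69098797, plus strand: acccaagtcCACGTGcagggatgt
Per2, upstream of the start, chr1:91459417-91459474, minus strand: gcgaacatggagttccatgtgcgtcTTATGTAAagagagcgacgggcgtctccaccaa
Per2, at the start, chr1:91459305-91459328, minus strand: gcgcgcggtCACGTTttccactat
Cry1, upstream of the start, chr10:85185084-85185158, minus strand: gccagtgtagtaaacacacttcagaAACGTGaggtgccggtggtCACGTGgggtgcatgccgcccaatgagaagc
Cry1, intron, chr10:85161884-85161999, minus strand: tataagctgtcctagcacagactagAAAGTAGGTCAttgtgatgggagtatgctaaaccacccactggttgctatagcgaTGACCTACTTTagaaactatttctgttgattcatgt
Nr1d1, first intron site, chr11:98774055-98774184, minus strand: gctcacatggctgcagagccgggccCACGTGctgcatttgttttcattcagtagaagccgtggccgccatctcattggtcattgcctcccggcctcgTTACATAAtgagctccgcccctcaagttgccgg
Nr1d2, inside the gene at the promoter, chr14:18238500-18238703, minus strand: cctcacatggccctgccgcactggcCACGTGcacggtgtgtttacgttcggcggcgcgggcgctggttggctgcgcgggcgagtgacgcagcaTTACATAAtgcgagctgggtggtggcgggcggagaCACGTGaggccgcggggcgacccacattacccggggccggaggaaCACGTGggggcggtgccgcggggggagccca
Dbp, upstream of the start, chr7:45704870-45704930, plus strand: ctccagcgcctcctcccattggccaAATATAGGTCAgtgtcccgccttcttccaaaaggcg
Dbp, inside the gene, chr7:45707816-45707839, plus strand: tgtaggccaCACGTGatgcggccc
Tef, at the later start, chr15:81811045-81811068, plus strand: ctgccgctcCACGTGaccctcggg

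Of the 25 matches to these clock motifs in such bins, no pair overlapped. Over all 130681 open 500-bp bins of the genome, an E-box was present in 9.12%, its variant in 8.67%, a D-box in 1.75%, a CRE in 0.960% and a RORE in 0.662%. Of the 42 local maxima over the clock loci in bins not assigned to an annotated start, 5 (11.9%) held an E-box, all of them in the Nr1d1 locus, and 4 (9.52%) its variant. A RORE was in 2 (4.76%), a D-box in 2 (4.76%) and a CRE in 1 (2.38%), counts too small to set against the shares of all open bins. The bin 20.6 kb from the Nr1d1 start holds an E-box and a variant, and its open site touches a start of the neighbouring gene Thra. Counting from the first annotated start as 0, the Per1 E-boxes in bins at local maxima began at -150 and 3566 bp and its CRE at 1985 bp. A further Per1 E-box, at -334 bp, lay in the open bin next to the maximum at the first start. The Cry1 E-box and variant E-box began at -50 and -69 bp, and the Cry1 intron held a pair of ROREs at 23090 and 23145 bp. In Nr1d2, 3 E-boxes and a D-box lay between 449 and 597 bp. The start of Per2 carried its variant E-box at 5 bp and D-boxes at -125 and 222 bp.

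Motifs were also searched on both strands in the window of 500 bp either side of each principal start. This is the start of the coding transcript with the best principal tag in GENCODE vM21. Among ties, and in genes without a tag, the transcript with the longest coding sequence was taken. An E-box was present in 5 of 10 members (Per1, Cry1, Nr1d1, Nr1d2 and Tef) and in 17.1% of all 21670 protein-coding promoters. The variant E-box was present in 5 members (Per1, Per2, Cry1, Cry2 and Nr1d1) and in 15.8% of promoters. A RORE was found in Arntl, at 72 bp, and Dbp, at -193 bp, against 0.988% of promoters. A D-box was found only in Per2 among the 10, against 2.85% of promoters, and a CRE in none of the 10 windows, against 3.40%. The GC box GGGCGG was in 9 members and 62.2% of promoters. Of the motifs of blood cell factors, the RUNX letters TGTGGT were in 1 member (Cry2) against 41.0% of promoters, the ETS letters CCGGAA in 3 against 34.5%, and the GATA letters AGATAA in 1 against 29.6%. These counts depend on the start. The window at the first annotated Per1 start held a RUNX and an ETS match, and that at a later Clock start an ETS match. The later Tef start lacked the ETS and GATA matches of its principal start. All of these are letter matches in a window and do not show that a factor was bound.

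All 10 clock genes had an open promoter. A promoter was called open when its 1000-bp window held at least 5 times the genome mean of windows of that size (17.4 fragments), which was true of 61.0% of all protein-coding promoters. The members stood at 37.9 to 235 times the mean. Their median level was 70.7 fragments per 1000000 fragments of the kept cells (FPM), beside 6.77 FPM over all protein-coding promoters. Intervals below are exact 95% Poisson intervals, conditional binomial ones for ratios between single counts, or exact binomial ones for shares. The ratio of Per1 to the median of the other members is an exception, described where it is given. All intervals cover counting error only, because there was no replicate library.

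The activators Arntl and Clock differed widely. Arntl, the partner that CLOCK needs to bind DNA, had 3981 fragments at its principal start, or 107 FPM (104 to 111), at the 98.5th percentile of all promoters. Clock, which encodes the other subunit, had 700 fragments, or 18.8 FPM (17.5 to 20.3), at the 67.8th percentile. Over its whole locus Clock had 4 open bins of 271, all in 1 site at the promoter. A start 244 bp further into the gene gave Clock 22.6 FPM (21.1 to 24.2), while the coding start of Clock-204, 30780 bp into the gene, had 0.135 FPM. The antisense transcript Gm7467 begins 84 bp upstream of the Clock start on the opposite strand, and ATAC fragments carry no strand, so the signals of both starts cannot be told apart.

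The repressors of the Per and Cry families held an intermediate range. Per2 had 85.8 FPM (82.9 to 88.9) and Cry2 74.5 FPM (71.7 to 77.3). Per1 had 54.5 FPM (52.2 to 56.9) at its principal start and Cry1 51.9 FPM (49.7 to 54.3). The level of Per1 depended on which of its starts was counted, as described below.

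The paralogs of the second loop differed. Nr1d2 had 4081 fragments at its principal start, or 110 FPM (107 to 113), at the 98.6th percentile. Nr1d1 had 658 fragments, or 17.7 FPM (16.4 to 19.1), at the 66.5th percentile. The output factors Dbp and Tef, both of the PAR bZIP family, had 89.4 FPM (86.4 to 92.5) and 66.9 FPM (64.3 to 69.5).

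In descending order the principal starts ran Nr1d2, Arntl, Dbp, Per2, Cry2, Tef, Per1, Cry1, Clock and Nr1d1. For 4 of the 9 neighbouring pairs the interval of the ratio included 1. These were Nr1d2 over Arntl (1.03, 0.981 to 1.07), Dbp over Per2 (1.04, 0.992 to 1.09), Per1 over Cry1 (1.05, 0.985 to 1.12) and Clock over Nr1d1 (1.06, 0.955 to 1.19). Both ends of this order depended on the counting. Arntl stood above Nr1d2 with midpoints (104 against 95.5 FPM), with 250 bp either side (90.1 against 77.4) and with fragments shorter than nucleosome core DNA (162 against 133), where Per2 (135) also passed Nr1d2. With 1000 bp either side Nr1d2 was instead clearly above Arntl, at 160 FPM (156 to 165) against 112 (109 to 115), and Nr1d1 below Clock, at 23.7 FPM (22.2 to 25.3) against 31.0 (29.3 to 32.9). With those short fragments Clock was lowest at 14.5 FPM (12.7 to 16.4), below Nr1d1 at 21.6 FPM (19.4 to 23.9). The widest step was from Cry1 to Clock, a ratio of 2.76 (2.53 to 3.01).

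**Figure D1:**
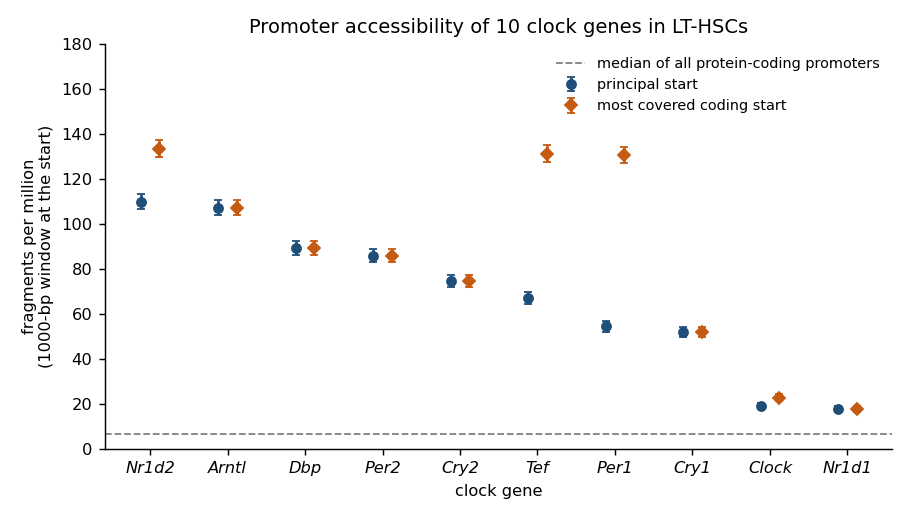
FPM (vertical axis) in the 1000-bp window at the principal start (circles) and at the most covered coding start (diamonds) of each clock gene, with exact 95% Poisson intervals; the dashed line is the median of all protein-coding promoters, 6.77. Per1 and Tef rise from 54.5 and 66.9 to 131 each when the most covered start is used, while Clock and Nr1d1 stay lowest on both measures.

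Per1 and Tef had a more accessible start than the one taken as principal. The first annotated start of Per1 (Per1-202, at chr11 position 69095217) lies 3731 bp upstream of the principal one (Per1-201, at 69098948). Its window held 4852 fragments, or 131 FPM (127 to 134), against 2024 for the principal start. In Tef the start lying 8625 bp into the gene (Tef-206) held 4874 fragments, or 131 FPM (128 to 135), against 2483 at the principal start. At the Tef principal start, the antisense transcript Gm17597 begins 0.192 kb inside the gene on the opposite strand and its window held 68.3 FPM, which overlaps the Tef window. A start 116 bp into Nr1d2 raised its level to 134 FPM (130 to 137). Taking the most covered coding start of every gene, the median of the members was 87.6 FPM, and 63.9% of all promoters were open.

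No annotated transcript starts head to head with Per1. The nearest opposite-strand start upstream belongs to the antisense transcript 9330160F10Rik and lies 34.7 kb from the first Per1 start, beyond the 5 kb set as the limit for calling a pair divergent. The nearest protein-coding start upstream is that of Vamp2, which encodes a vesicle membrane protein. It lies 6.73 kb away and points the same way as Per1, so the pair is in tandem.

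Per1 was more accessible than both upstream neighbours. Vamp2 had 870 fragments, or 23.4 FPM (21.90 to 25.04), and 9330160F10Rik had 558, or 15.0 FPM (13.8 to 16.3). The principal Per1 start exceeded Vamp2 by 2.33 times (2.15 to 2.52) and 9330160F10Rik by 3.63 times (3.30 to 3.99). With the first Per1 start these ratios were 5.58 (5.19 to 6.00) and 8.70 (7.96 to 9.51). The second ratio also moved with the window, to 5.13 with 250 bp and 1.52 with 1000 bp either side, and with the fragments counted, to 9.97 with only fragments shorter than the DNA of a nucleosome core.

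Whether Per1 stood below or above the other clock promoters depended on the start. Its principal start had 0.732 times (0.700 to 0.764) the median of the other 9, which was 2766 fragments. Here and in the next ratio, the interval is that of the Per1 count over a fixed median. It leaves out the counting error of the median and is therefore too narrow. At the most covered starts the ratio was 1.52 (1.48 to 1.57), against a median of 3188. There Nr1d2, Tef and Per1 had 4958, 4874 and 4852 fragments, and the next was Arntl with 3981.

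The Per1 gene was open along its whole length. A bin was called open at 5 times the genome mean of 9.99 fragments or more. This held for 71 of the 110 Per1 bins (64.5%), against 2.55% of all bins in the genome and 4.09% of bins in or within 20 kb of protein-coding genes. By this share the Per1 locus ranked 6 of 21670 gene loci, with neighbouring genes sharing many of the same bins. One unbroken run of 47 open bins, 23.5 kb long, took in the whole gene, and only 2 of 55213 such runs in the genome, itself included, were as wide. In contrast, the 24 bins from 20 to 8 kb upstream had between 0.108 and 0.916 FPM, beside a genome mean of 0.269 FPM per bin.

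Within the run, distinct maxima stood above the open gene body. The bin at the first start held 3011 fragments, or 81.1 FPM (78.2 to 84.0). A site 2.03 kb downstream in the first intron held 2873 fragments, or 77.4 FPM (74.6 to 80.2), and carries the CRE printed above. A predicted RefSeq transcript of Per1 has an exon over that CRE, while GENCODE has none there. The bin at the principal start followed with 1634 fragments, or 44.0 FPM (41.9 to 46.2). Across the 17 Per1 body bins more than 1 kb from any annotated start, the lowest held 104 fragments and the median 146, which is 14.6 times the genome mean. The median body bin of all 18475 protein-coding genes with at least 3 such bins was 0.400 times the mean, and Per1 ranked 29.

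**Figure D2:**
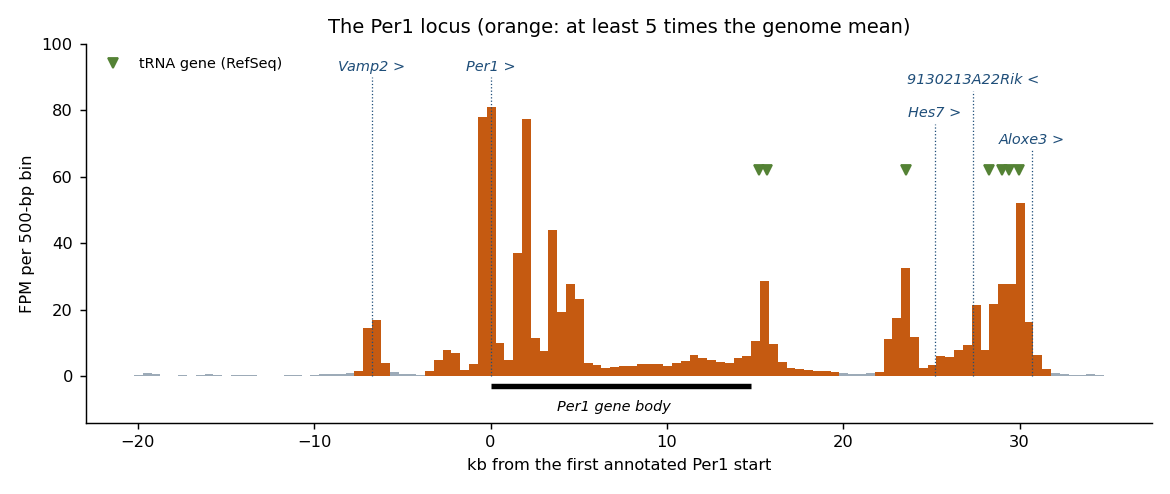
FPM per 500-bp bin (vertical axis) along the Per1 locus, against the distance in kb from the first annotated Per1 start; orange bins reach 5 times the genome mean, arrowheads beside the gene names give the direction of transcription, the black bar is the gene body and triangles are tRNA genes. The first start and the intron site reach 81.1 and 77.4 FPM, the gene body stays open throughout, and Vamp2 points the same way as Per1.

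RefSeq annotates 7 tRNA genes in the 20 kb downstream of Per1. All 7 start in open bins, against 57.6% of all 403 tRNA genes on these chromosomes. The bin 15.5 kb from the first start, which holds n-TTagt5 and n-TScga3, had 1065 fragments, or 28.7 FPM (27.0 to 30.5). The bin at 23.5 kb, with n-TGgcc5, had 32.5 FPM (30.7 to 34.4). Further on, a bin with n-TKctt27 near the start of Aloxe3, a lipoxygenase gene, had 52.1 FPM (49.8 to 54.5). Since tRNA genes occur in near-identical copies, counts directly over them are uncertain. Hes7, a Notch target of the somite clock that starts 25.2 kb away, had 7.05 FPM (6.23 to 7.96) at its promoter. The start of 9130213A22Rik, on the opposite strand 27.4 kb away, had 26.9 FPM (25.2 to 28.6). Open bins downstream of Per1 thus held tRNA genes, starts of other genes, or neither.

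Nr1d1 was more accessible inside the gene than at its start. A bin 1.08 kb into the gene, in an intron, held 860 fragments, or 23.2 FPM (21.6 to 24.8), and carries the E-box and D-box printed above. The whole 1000-bp window at the start held 658. The Nr1d1 locus had 37 open bins of 96 (38.5%, the 99.2nd percentile of gene loci), including maxima at -7.92, -11.9 and -13.9 kb from the start with 7.73, 13.9 and 16.2 FPM. The last of these holds 2 E-boxes. Thra, a thyroid hormone receptor gene on the opposite strand, covers the downstream maxima, and Msl1 starts at the upstream edge of the locus with 46.7 FPM (44.5 to 48.9).

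Dbp also had an internal site, but it was less accessible than the start. A bin 2.66 kb into the gene held 1377 fragments, or 37.1 FPM (35.1 to 39.1), next to 62.7 FPM (60.2 to 65.3) in the bin at the start. That internal bin holds 2 E-boxes and a variant E-box, and the retained-intron transcript Dbp-202 is annotated to start in it. The bin at the start also lies inside Car11, a gene on the same strand, and the open site there touches starts of both genes. In all, 32 of 91 Dbp bins were open (35.2%). Downstream lie the starts of Rpl18, a ribosomal protein gene, with 31.2 FPM (29.4 to 33.0) and of Sphk2, a sphingosine kinase gene, with 55.3 FPM (52.9 to 57.7).

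In the longer genes the highest bin lay at one of the gene's own starts. Arntl, 106662 bp long, had 22 open bins of 295, and its 8 internal sites were weak, the highest bin outside any annotated start reaching 8.54 FPM (7.62 to 9.53) at 53.3 kb. The start of the antisense transcript Gm45355, 87.9 kb into Arntl, had 14.5 FPM (13.3 to 15.8). Cry1 had 9 open bins of 188, and its RORE-bearing intron bin held 65 fragments, or 1.75 FPM (1.35 to 2.23), 6.51 times the genome mean. Cry2 had 18 open bins of 142, with an exonic maximum 11.3 kb into the gene at 13.7 FPM (12.5 to 14.9). The bin of that maximum also lies inside another annotated gene. In Per2, 25 of 168 bins were open and the highest of its intronic maxima, 30.6 kb in, had 8.75 FPM (7.83 to 9.76), while the start of Hes6 beyond its 3′ end had 35.2 FPM (33.3 to 37.2). Nr1d2 had 11 open bins of 151. Tef had 20 of 130, with a maximum downstream of the gene, 29.3 kb from the first start, at 28.2 FPM (26.56 to 30.01).

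**Figure D3:**
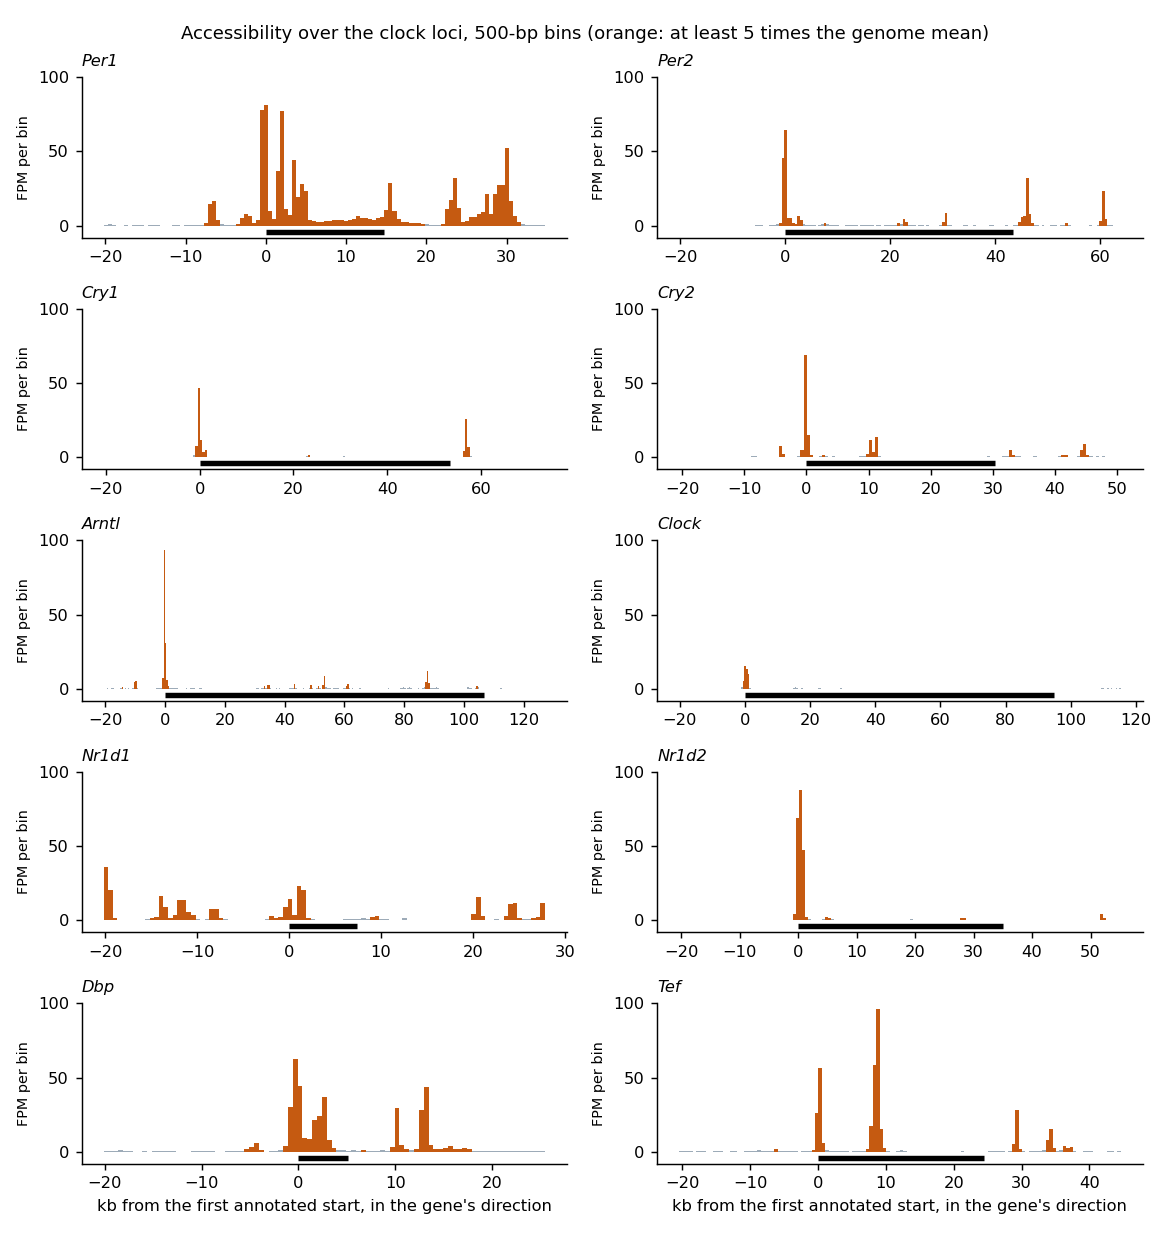
FPM per 500-bp bin (vertical axis) over each clock gene (black bar) and 20 kb either side, against the distance in kb from its first annotated start in the direction of transcription; orange bins reach 5 times the genome mean. Signal is concentrated at the start in Cry1, Arntl, Clock and Nr1d2, at a pair of starts in Tef, and is spread through the gene in Per1.

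Over all 10 loci, 249 of 1642 bins were open (15.2%), and without Per1 178 of 1532 (11.6%). The share of a locus's fragments that fell in open sites touching one of the gene's own starts was 59.0% (58.7 to 59.4) over the 10 genes. It ranged from 25.5% (24.6 to 26.4) in Nr1d1 to 86.8% (86.0 to 87.6) in Nr1d2. For Per1 it was 64.0% (63.4 to 64.6), but that site is the 23.5-kb run. Counting only windows of 500 bp either side of annotated starts, an alternative chosen after seeing the data, Per1 had 32.4% (31.8 to 33.0), Nr1d1 7.98% (7.41 to 8.57) and Nr1d2 72.3% (71.2 to 73.3).

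Fragment length differed between the clock promoters. Short fragments, below the length of DNA wound on a nucleosome core, made up 53.3% at the median of the 11526 protein-coding promoters with at least 200 fragments. Cry2 had 74.7% (73.0 to 76.3), Per2 71.4% (69.8 to 73.0) and Tef 71.0% (69.2 to 72.8), at percentiles of 98.1, 94.9 and 94.3 among those promoters. Clock had 35.0% (31.5 to 38.7), at a percentile of 9.41, and Cry1 48.2% (45.9 to 50.4). The first Per1 start had 71.4% (70.1 to 72.6) and its principal start 58.1% (55.9 to 60.3). In exonic maxima of the Per1 body, 8.53 and 11.5 kb from the first start, the share was 14.3% and 28.6%. At the maximum in the first intron of Per1 it was 63.3%. Over the 17 body bins together it was 45.4%, but these include that maximum, with 2873 fragments against a median of 146 per bin. The share without the intron site was not counted.

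**Figure D4:**
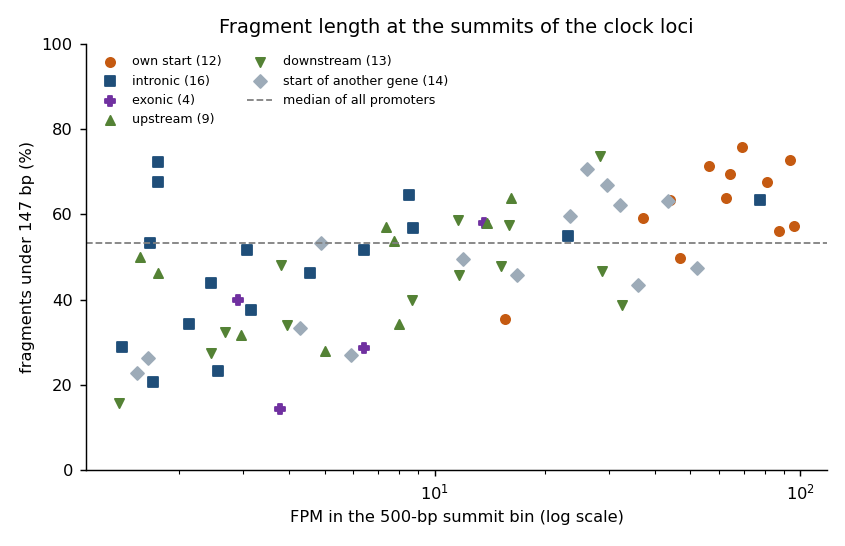
Share of fragments shorter than nucleosome core DNA (vertical axis, %) against FPM on a log scale in each of the 68 bins that were local maxima over the clock loci, marked by position; the dashed line is the median of all promoters, 53.3%. Bins at the genes' own starts lie at the right, mostly above the line, and the lowest of them is Clock.

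The promoter sequences also differed in composition. The median protein-coding promoter window was 55.4% G and C with 44 CpG dinucleotides, and the median open one was 59.8% with 64. Cry1 and Clock were richest among the members, with 72.9% and 74.3% G and C and 134 and 123 CpGs. Nr1d1, Dbp and the principal start of Per1 had 54.9%, 55.5% and 56.8% with 32, 52 and 38 CpGs, below the medians of open promoters. Tef had only 23 CpGs at its principal start but 87 at its later, more accessible one.

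Clock promoters were read in a large share of single cells. At least 1 fragment at the principal start was found in 67.9% of cells for Arntl and for Nr1d2 (66.2 to 69.6, exact binomial) and in 59.4% for Per2 (57.6 to 61.1). Per1 was read in 43.0% of cells (41.3 to 44.8), and its first start in 75.1% (73.5 to 76.6). Clock and Nr1d1 were read in 17.8% (16.4 to 19.2) and 16.9% (15.6 to 18.3). As background in the same cells, the promoters of the non-blood genes Alb, Sftpc, Myh6 and Ins2 were read in 0 to 0.676% of cells. A missing fragment in a cell is not a closed promoter, since depth limits every share. The median cell had a fragment at 5 of the 10 promoters, and only 18 cells of 3108 had none.

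**Figure D5:**
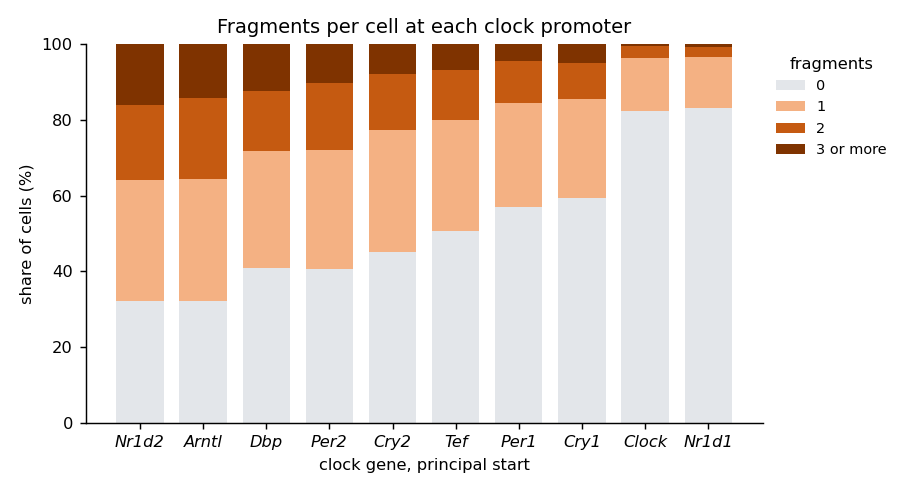
Share of the 3108 cells (vertical axis, %) with 0, 1, 2 or at least 3 fragments at the principal start of each clock gene, in descending order of level. Arntl and Nr1d2 have no fragment in 997 cells each, whereas Nr1d1 has none in 2582.

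The number of cells with a fragment was 0.893 to 0.975 times that expected from each cell's fragments in peaks, beside a median of 0.914 over all promoters with at least 200 fragments. For each of the 45 pairs of members, cells with both promoters read were counted against the number expected from depth and each gene's own share. The ratios ran from 0.930 (Clock and Dbp) to 1.06 (Nr1d1 and Dbp), with a median of 0.991. These ratios are a description over the cells of 1 library and were not tested.

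For 19 other clock genes, part of a longer list that is not reported in full, the principal promoters ran from 6.19 FPM (5.42 to 7.05) in Bhlhe41, a paralog of Bhlhe40, to 83.0 FPM in Per3, with a median of 30.7 FPM. These 19 were above the threshold for an open promoter, which gives no share for the whole list. The highest were Per3, a further period gene, with 83.0 FPM (80.1 to 86.0), and Bhlhe40 (DEC1), a repressor at E-boxes, with 76.7 FPM (73.9 to 79.5). Paralogs of the activators were lower, with Arntl2 at 6.76 FPM (5.95 to 7.65) and Npas2, a CLOCK paralog, at 9.21 FPM (8.26 to 10.2). Among the ROR activators, which compete with the NR1D proteins, Rora had 23.9 FPM (22.3 to 25.5) and Rorb 14.1 FPM (12.9 to 15.3). Nfil3, a repressor at D-boxes, had 29.8 FPM (28.1 to 31.6), and Hlf, a PAR bZIP gene related to Dbp and Tef and an HSC factor, had 46.7 FPM (44.6 to 49.0). The deubiquitinase gene Usp2 shared the pattern of Per1 and Tef, with 12.2 FPM at its principal start and 54.9 FPM at its most covered one.

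Markers of the sorted cells were checked in the same way. Of the 6 HSC markers reported, 5 had an open promoter, against 61.0% of all protein-coding promoters. Kit, Mecom and Hlf had 30.1, 19.2 and 46.7 FPM. Slamf1 and Procr were open at 2.96 and 5.20 FPM, below the median of all protein-coding promoters, 6.77 FPM. Ly6a, which encodes Sca-1, was not open, at 1.02 FPM (0.724 to 1.40). None of the 11 T cell, B cell and granulocyte markers was open (0.0269 to 1.16 FPM). All 3 megakaryocyte markers (13.6 to 29.2 FPM) were open, as was the erythroid marker Klf1 at 2.50 FPM (2.02 to 3.07), while Hbb-bt was not, at 0.512 FPM (0.308 to 0.799). Their part in the clock values was not tested.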

How the data were processed

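The authors processed the ATAC and RNA libraries with Cell Ranger ARC 2.0.2 on mm10 and deposited, for every barcode, counts of fragments, fragments in peaks and RNA UMIs and a cell call, together with the position of each unique fragment and its count of read pairs. Of 42000180 deposited fragments, those of called cells with over 3000 fragments in peaks were used. Antibody tags and RNA counts per gene were not used here. Doublets were not removed. A fragment was counted once in a window or bin if either end lay in it. Levels are fragments per 1000000 (FPM) of the kept cells on chromosomes 1 to 19 and X. Bins with under 250 known bases were left out of the genome mean. Summit bins were open bins at least as high as the 2 bins either side. Gene models came from GENCODE vM21 and tRNA genes and sequence from RefSeq GRCm38.p6. The clock genes, the gene lists and the measures were chosen with earlier results of these data known. Genes named are the 10 members, genes starting opposite them or in their open sites, the list of other clock genes, the cell type markers and the nearest opposite-strand start upstream of Per1. Some genes of the clock and marker lists are not reported here and were left out of their counts. The body levels, summit bins, tRNA genes, fragment lengths and promoter composition were examined after the values were seen. There was 1 ATAC library, so no test was run. Python 3.11.15 with numpy 2.4.6, scipy 1.17.1 and pandas 2.3.3 was used. Counting and intervals were checked on simulated independent Poisson counts, which cannot show how the intervals hold for fragments clustered within cells. Alternatives changed the cells, the fragments, the window, the start, the grid and the threshold.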

Additional observations from a re-analysis of the deposited data

How the results depend on the processing

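All 10 promoters stayed open under the alternatives of cells, fragments, window, start and threshold, and the count of open bins stayed between 172 (10 times the mean) and 318 (3 times). Using all called cells or leaving out the 5% of cells with the most fragments (155 cells) moved none of the values for the 10 genes together or for the Per1 ratios beyond their counting intervals. The ratio of Per1 to the median of the other 9 turned from 0.732 to 1.52 at the most covered starts, because the first Per1 start is then counted. It was 0.674 with midpoints, 0.697 with at least 2 read pairs, 0.577 with short fragments only, 0.676 with 250 bp and 0.987 with 1000 bp either side. Per1 over 9330160F10Rik was 4.39, 4.03, 9.97, 5.13 and 1.52 under the same 5 settings and 8.70 at the most covered starts. Per1 over Vamp2 was 2.95 with short fragments only, 2.93 with 1000 bp and 5.58 at the most covered starts. The median clock promoter was 112 FPM with short fragments only, 62.2 with 250 bp, 75.5 with 1000 bp and 87.6 at the most covered starts. The share of locus fragments at promoter sites was 57.9% with midpoints, 59.4% with at least 2 read pairs, 61.0% with short fragments only, 58.7% with the grid moved by 250 bp, 59.4% and 53.8% at 3 and 10 times the mean, and 44.4% in windows at annotated starts, which was added after seeing the data. The causes of these shifts were otherwise not tested. Of 80 values of single genes, 40 moved beyond their counting intervals. No paired analysis was possible because there was 1 ATAC library. Levels describe accessibility in that library and give no spread between animals or times of day.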
